A study of Mus musculus with 12 samples.

Results

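Genes that handle antibody complexes, 10 in all, were followed in RNA-seq counts from mouse spleen: the IgG receptors Fcgr1, Fcgr2b, Fcgr3 and Fcgr4, their signalling chain Fcer1g, the neonatal Fc receptor Fcgrt, the C1q chains C1qa, C1qb and C1qc, and complement C3. The 10 were chosen by symbol, and each matched 1 of the 53715 gene identifiers in the count table through the GENCODE M21 annotation of GRCm38. They and the gene lists below were chosen with earlier results of these data known. Shares over all genes set beside them are therefore a description, not a test. All 10 passed the filter on low counts that left 18542 genes for testing. The 12 libraries formed 3 groups of 4: spleens of 10-week-old mice that received the glycolysis inhibitor 2-deoxyglucose (2DG) ad libitum, dissolved at 6 g/L in their water (replicates 9 to 12); untreated spleens at 10 weeks, when the mice are symptomatic (replicates 5 to 8); and untreated spleens at 6 weeks, before symptoms (replicates 1 to 4). Every group was BXSB.Cg-Cd8atm1Mak Il15tm1Imx Yaa, abbreviated Yaa DKO in the labels, so the lupus-prone Yaa background and the targeted alleles of Cd8a and Il15 were shared by treated and untreated mice. The whole organ was sampled, and no control strain was included among these groups.

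Fc receptors read the constant part of IgG once it has coated a particle or formed a complex. Activating receptors on macrophages, monocytes, neutrophils and natural killer cells signal through a shared chain with an activating motif, while Fcgr2b carries an inhibitory motif and is the main IgG receptor of B cells. The same complexes start the classical complement pathway when C1q binds them, which leads to cleavage of C3 and to fragments that tag the complex for uptake. In the spleen, macrophages and dendritic cells make C1q and clear complexes from blood.

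The reference sequences before the starts of 3 of these genes are shown because Fcgr1, Fcgr4 and the C1q genes had the widest spread between the groups described next. They are the 250 bases before the RefSeq start on GRCm38.p6, written 5′ to 3′ on the strand of the gene, and come from the reference strain, not from these BXSB mice. Capitals mark matches on either strand to the motifs TTCNNNGAA (the gamma-activated sequence, GAS), GAAA and GAAA with any 2 bases between them (the interferon-stimulated response element, ISRE, bound by IRF proteins) and GAGGAA (the core recognised by PU.1, a factor of myeloid and B cells).
Fcgr1, chr3:96293970-96294219, minus strand: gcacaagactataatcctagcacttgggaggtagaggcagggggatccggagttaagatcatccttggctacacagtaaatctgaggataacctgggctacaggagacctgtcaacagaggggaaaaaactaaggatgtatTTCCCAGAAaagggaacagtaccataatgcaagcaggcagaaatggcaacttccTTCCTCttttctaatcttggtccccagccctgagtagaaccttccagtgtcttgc
Fcgr4, chr1:171018676-171018925, plus strand: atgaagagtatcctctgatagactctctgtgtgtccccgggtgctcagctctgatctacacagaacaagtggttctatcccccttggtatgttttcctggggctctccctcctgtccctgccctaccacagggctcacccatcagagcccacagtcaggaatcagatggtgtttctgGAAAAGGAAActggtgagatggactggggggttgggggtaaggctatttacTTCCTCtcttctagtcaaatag
C1qb, chr4:136886201-136886450, minus strand: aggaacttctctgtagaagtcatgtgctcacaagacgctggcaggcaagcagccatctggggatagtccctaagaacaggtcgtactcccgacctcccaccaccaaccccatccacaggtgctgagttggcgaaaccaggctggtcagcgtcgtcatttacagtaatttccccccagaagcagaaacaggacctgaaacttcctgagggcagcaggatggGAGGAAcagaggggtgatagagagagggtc
The Fcgr1 window held a GAS match whose first base lay at position -109 and a PU.1 core match at -55. The Fcgr4 window held an ISRE match at -73 and a PU.1 core match at -22, and that of C1qb a PU.1 core match at -30. Of the 9 members with a RefSeq promoter entry, Fcgr3 and C1qc also held a PU.1 core match, and no match was found in the windows of Fcgr2b, Fcer1g, Fcgrt and C3. Matches were sought in the 250 bases before the start and the 50 bases after it, and all those in the members lay before it. Among 32851 such windows of all genes, 8.3% held GAS, 3.44% ISRE and 28.3% the PU.1 core, so the PU.1 core in particular is common, and a match describes letters, not binding.

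Total counts ran from 21581820 to 23835453 in the 2DG libraries, from 20692818 to 26079979 in untreated 10-week libraries and from 15596040 to 22480545 in untreated 6-week libraries. Untreated 10-week libraries spread most, with a biological coefficient of variation over all genes of 0.114 with 2DG, 0.241 untreated at 10 weeks and 0.127 at 6 weeks. Untreated 10-week replicate 8 stood apart: it was the lowest of its group for 9 of the 10 genes, lay inside the 6-week range for 9 and inside the 2DG range for 6. Replicate 6 of the same group was the highest for all 10. Results are therefore given with replicate 8 and, where it matters, without it. For the comparisons that use these libraries, calls are also given without replicate 6. Replicate 8 was singled out by the levels of these same genes. Leaving it out raises the untreated 10-week mean of the 9 genes for which it was lowest, so calls without it are no separate support. The labels name separate samples without saying that each came from its own mouse, so p-values measure the spread between these samples. In a whole organ, fewer cells of a type and less RNA per cell cannot be told apart. Mature B cell markers were present throughout, with summed levels of 5497 to 6053 CPM with 2DG, 3386 to 6414 CPM untreated at 10 weeks and 5321 to 6208 CPM at 6 weeks.

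In symptomatic mice, 2DG spleens held lower levels of Fcgr1 and C1qa than untreated spleens of the same age, and these were the 2 of 10 genes that passed edgeR's quasi-likelihood test (adjusted p under 0.05). Among all 18542 genes tested, 5.26% passed in that direction. The log2 fold change was positive for 1 of the 10, Fcgr2b, as it was for 51.8% of all genes, and the median over the 10 was -0.68, against 0.01 over all genes. No member rose. DESeq2 called 7 of the 10, all lower (Fcgr1, Fcgr4, Fcer1g, C1qa, C1qb, C1qc and C3). It called 2304 genes in either direction, 6.29% of the 36604 genes with any count. DESeq2 shares here and below include many genes too low for edgeR's filter, so they are not comparable with edgeR's shares over 18542 genes. Without untreated replicate 8 edgeR called the same 7 names, against 11.8% of all genes. Leaving out 1 library at a time gave between 0 and 7 members, so the number of calls rests on single libraries. Without untreated replicate 6, the highest, edgeR called 0 of the 10, against 1829 of 18831 genes in either direction. Fitted log2 fold changes were then -1.21 for Fcgr1, -1.77 for Fcgr4, -0.22 for Fcgr3 and -0.48 for Fcer1g. Those of C1qa, C1qb, C1qc and C3 were -0.68, -0.70, -0.48 and -0.26, and Fcgr2b and Fcgrt were positive (0.15 and 0.05). The edgeR adjusted p was lowest for Fcgr1 and C1qa in that fit, at 0.0633 and 0.0635.

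**Figure D1:**
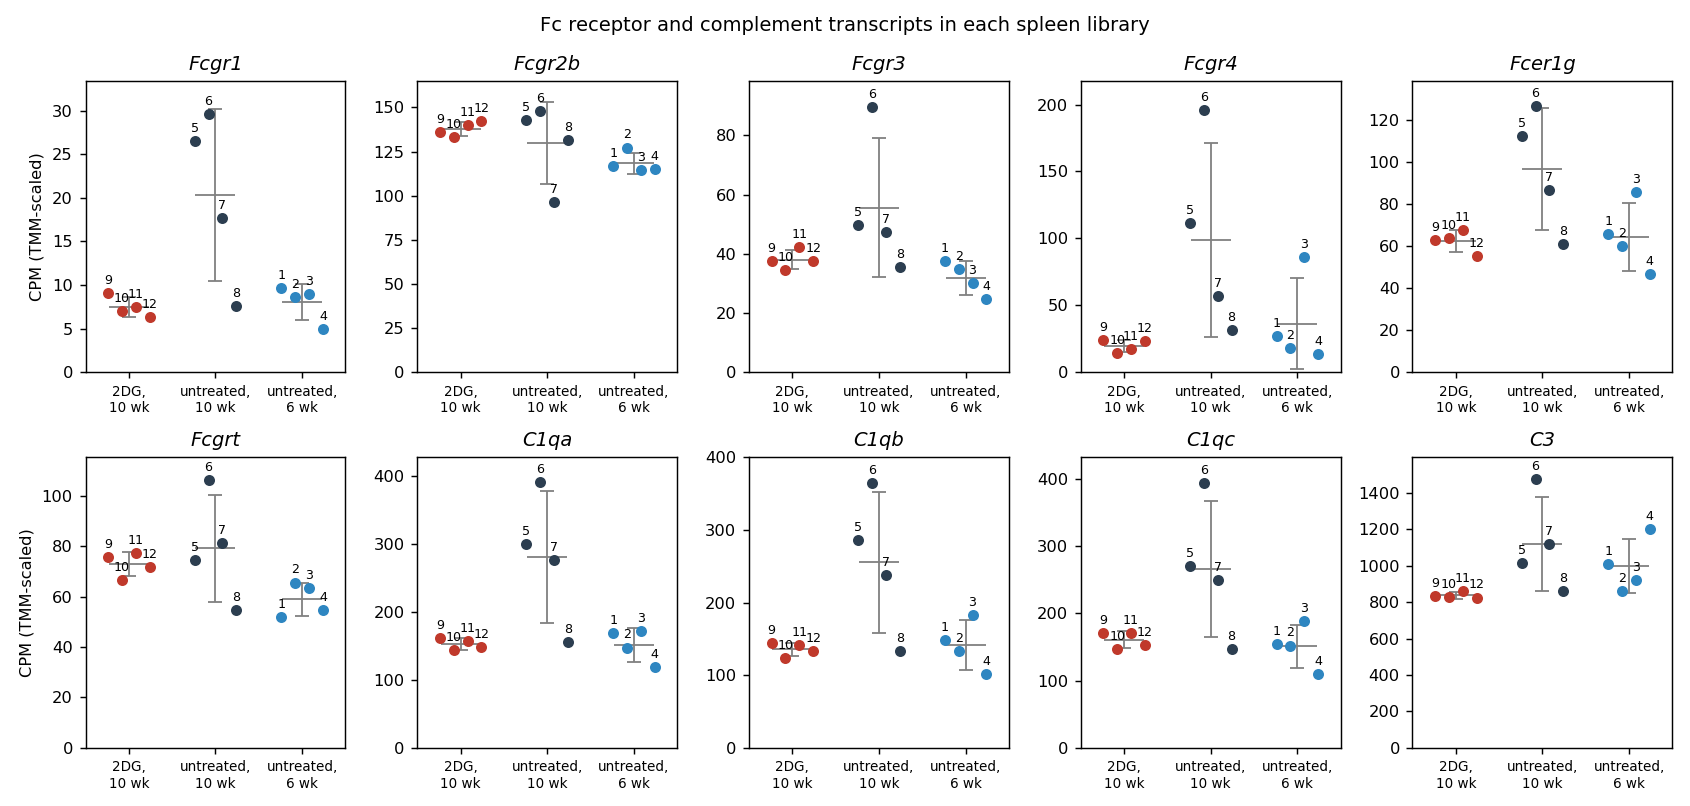
Level of each gene (CPM, counts scaled to library size after TMM normalisation) in each library, by group; numbers are replicates, horizontal bars are means and error bars SD (n = 4). Untreated 10-week replicate 6 is the highest point of its group in every panel, and replicate 8 falls among the 2DG and 6-week points for C1qa and Fcgr1.

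Among the activating receptors, Fcgr1 encodes the high-affinity receptor, which binds monomeric IgG2a and IgG2c (chromosome 3, 96282909 to 96293969, minus strand). It had the lowest level per kilobase of the 10 genes in every group, with 141 to 215 counts per library with 2DG, 179 to 631 untreated at 10 weeks and 81 to 217 at 6 weeks. Its levels were 9.05, 7.03, 7.49 and 6.29 CPM in 2DG libraries, 26.6, 29.6, 17.7 and 7.63 CPM in untreated 10-week libraries, and 9.61, 8.62, 8.99 and 4.97 CPM in untreated 6-week libraries. Replicates 5, 6 and 7 stood above every other library, and replicate 8 lay within the 2DG values. Fcgr1 averaged 7.47 ± 1.17 CPM with 2DG and 20.4 ± 9.89 CPM in untreated spleens at 10 weeks (SD, n = 4 each), and fell with a log2 fold change of -1.44 (SE 0.35, edgeR adjusted p = 0.0329). The call did not hold in 7 of 12 leave-one-out fits: those without 6-week replicate 2, untreated 10-week replicate 5 or 6, or any one of the 2DG replicates (edgeR adjusted p up to 0.104). Without replicate 8 the log2 fold change was -1.73 (edgeR adjusted p = 0.000748).

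Fcgr4, an activating receptor with a preference for IgG2a, IgG2b and IgG2c (chromosome 1, 171018920 to 171029761, plus strand), varied most. It had 23.9, 14.1, 17.3 and 22.9 CPM in 2DG libraries, 111, 196, 56.9 and 31.6 CPM in untreated 10-week libraries, and 27.0, 18.3, 86.3 and 13.5 CPM in untreated 6-week libraries. All 2DG values lay below all untreated 10-week values, while 6-week replicate 3 sat among the untreated 10-week libraries. The means were 19.6 ± 4.64 CPM with 2DG and 98.8 ± 72.6 CPM untreated (SD, n = 4 each), and the log2 fold change of -2.33 (SE 0.69) missed the threshold (edgeR adjusted p = 0.0707). It passed without 6-week replicate 3 (edgeR adjusted p = 0.0375) and without untreated 10-week replicate 8 (edgeR adjusted p = 0.0342). Fcgr4 and C3 were the 2 of 10 members whose 2DG libraries all lay below the untreated 10-week libraries, as did 7.91% of all genes.

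Fcgr3, the low-affinity activating receptor (chromosome 1, 171051174 to 171064935, minus strand), had 37.5, 34.6, 42.3 and 37.5 CPM with 2DG and 49.8, 89.6, 47.4 and 35.4 CPM in untreated spleens at 10 weeks. Replicate 6 stood far above the rest and replicate 8 within the 2DG values. The log2 fold change was -0.55 (SE 0.24, edgeR adjusted p = 0.186). Fcer1g encodes the FcR gamma chain that Fcgr1, Fcgr3 and Fcgr4 need for signalling and surface expression. It had 62.5, 63.7, 67.3 and 55.1 CPM with 2DG and 112, 126.5, 86.4 and 60.7 CPM untreated at 10 weeks. Again only replicate 8 reached into the 2DG range, and the log2 fold change was -0.63 (SE 0.22, edgeR adjusted p = 0.104), or -0.81 without replicate 8 (edgeR adjusted p = 0.0175).

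The inhibitory receptor Fcgr2b (chromosome 1, 170958617 to 170976547, minus strand) did not share this pattern of levels. It had 136, 133, 139.9 and 142 CPM in 2DG libraries, 143, 148, 96.6 and 132 CPM in untreated 10-week libraries, and 117, 127, 115 and 115 CPM at 6 weeks. Replicate 7, not replicate 8, was the lowest of the untreated 10-week libraries. That group overlapped both others, while all 2DG libraries lay above all 6-week libraries. The log2 fold change for 2DG was 0.09 (SE 0.11, edgeR adjusted p = 0.663). Fcgr2b and Fcgr3 transcripts share 166 stretches of 50 bases, 9.58% of those in Fcgr3, so counting could move some reads between them, and Fcgr2b shares 395 (6.95% of its own) with other genes in all; the other 8 genes shared no such stretch with another gene.

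Fcgrt encodes the heavy chain of the neonatal Fc receptor, which recycles IgG and albumin and so prolongs their life in blood (chromosome 7, 45092990 to 45103851, minus strand). It had 75.6, 66.7, 77.2 and 71.8 CPM with 2DG and 74.5, 106, 81.1 and 54.7 CPM untreated at 10 weeks. The untreated values enclosed those with 2DG on both sides, and the log2 fold change was -0.12 (SE 0.16, edgeR adjusted p = 0.700). Fcgr2b and Fcgrt overlap antisense genes, Gm38204 and Gm45669, whose reads these unstranded libraries cannot separate; the antisense genes had at most 5 and 11 counts in a library.

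Since activating and inhibitory receptors act against each other on one cell, the log2 ratio of each activating receptor to Fcgr2b was taken within each library, as a description with no test. The ratio Fcgr1/Fcgr2b averaged -4.22 ± 0.24 with 2DG, -2.83 ± 0.86 untreated at 10 weeks and -3.92 ± 0.42 at 6 weeks (SD, n = 4 each). Replicates 5, 6 and 7 held ratios between -2.45 and -2.32, above every other library, whereas replicate 8 was at -4.11. Fcgr4/Fcgr2b averaged -2.85 ± 0.34 with 2DG, -0.70 ± 1.03 untreated at 10 weeks and -2.10 at 6 weeks (range -3.09 to -0.41), with no overlap between 2DG (-3.24 to -2.51) and untreated 10-week libraries (-2.06 to 0.41). Fcgr3/Fcgr2b averaged -1.86 ± 0.10 with 2DG, -1.29 ± 0.52 untreated at 10 weeks and -1.91 ± 0.24 at 6 weeks. These are ratios of transcripts in a whole organ and do not give the balance on any cell type.

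**Figure D2:**
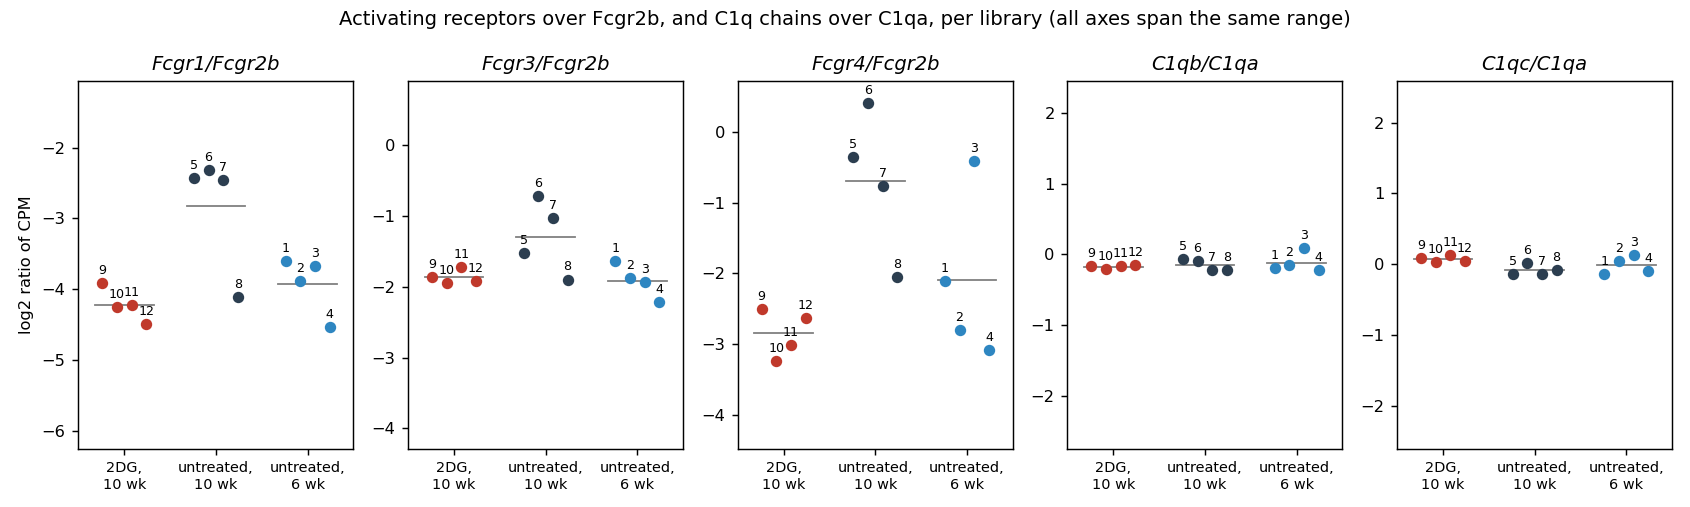
Log2 ratio of CPM within each library for 3 activating receptors over Fcgr2b and for 2 C1q chains over C1qa; points are libraries with replicate numbers and bars are group means. Receptor ratios of replicates 5, 6 and 7 stand above the 2DG libraries, while the C1q ratios lie close to 0 in every library.

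The C1q chains A, B and C assemble together into the recognition molecule of the classical pathway, and their genes lie side by side on chromosome 4 (C1qa at 136895917 to 136898803, C1qb at 136880129 to 136886187, C1qc at 136889804 to 136893065, all minus strand). C1qa had 161, 144, 158 and 148 CPM in 2DG libraries, 299.8, 391, 276 and 156 CPM in untreated 10-week libraries, and 169, 148, 172 and 118 CPM at 6 weeks. Replicates 5 to 7 stood above all other libraries and replicate 8 lay inside the 2DG range. C1qa averaged 153 ± 8.21 CPM with 2DG and 281 ± 96.9 CPM untreated at 10 weeks (SD, n = 4 each) and fell with a log2 fold change of -0.88 (SE 0.22, edgeR adjusted p = 0.0374). The call did not hold in 9 of 12 leave-one-out fits, those without 6-week replicate 2 or 3, untreated 10-week replicate 5, 6 or 7, or any one 2DG replicate (edgeR adjusted p up to 0.114). Without replicate 8 the log2 fold change was -1.08 (edgeR adjusted p = 0.000676).

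C1qb had 144, 124, 141 and 133 CPM with 2DG and 286, 365, 237 and 133 CPM untreated at 10 weeks, and C1qc had 171, 147, 172 and 153 CPM with 2DG and 271, 395, 249.95 and 147 CPM untreated. As with C1qa, replicate 8 was the only untreated 10-week library to reach into the 2DG range. The log2 fold changes were -0.91 for C1qb (SE 0.26, edgeR adjusted p = 0.0589) and -0.73 for C1qc (SE 0.25, edgeR adjusted p = 0.0994); without replicate 8 they were -1.13 and -0.93 and passed (edgeR adjusted p = 0.00309 and 0.00883). The chains kept nearly 1 ratio: log2 C1qb/C1qa averaged -0.17 ± 0.03 with 2DG, -0.15 ± 0.08 untreated at 10 weeks and -0.12 ± 0.14 at 6 weeks (SD, n = 4 each). C1qc/C1qa ran from 0.03 to 0.12 with 2DG and from -0.15 to 0.01 untreated at 10 weeks, a small offset without overlap that was not tested.

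C3, the protein on which all complement routes converge (chromosome 17, 57203970 to 57228136, minus strand), had 835, 826, 862.7 and 825 CPM in 2DG libraries, 1017, 1475, 1121 and 863.2 CPM in untreated 10-week libraries, and 1008, 859, 923 and 1204 CPM at 6 weeks. The 2DG values had a coefficient of variation of 2.09% and all lay below the untreated 10-week libraries, although the highest of them nearly touched replicate 8. C3 averaged 837 ± 17.5 CPM with 2DG and 1119 ± 260.0 CPM untreated (SD, n = 4 each), with a log2 fold change of -0.42 (SE 0.14, edgeR adjusted p = 0.0922), or -0.53 without replicate 8 (edgeR adjusted p = 0.0190).

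**Figure D3:**
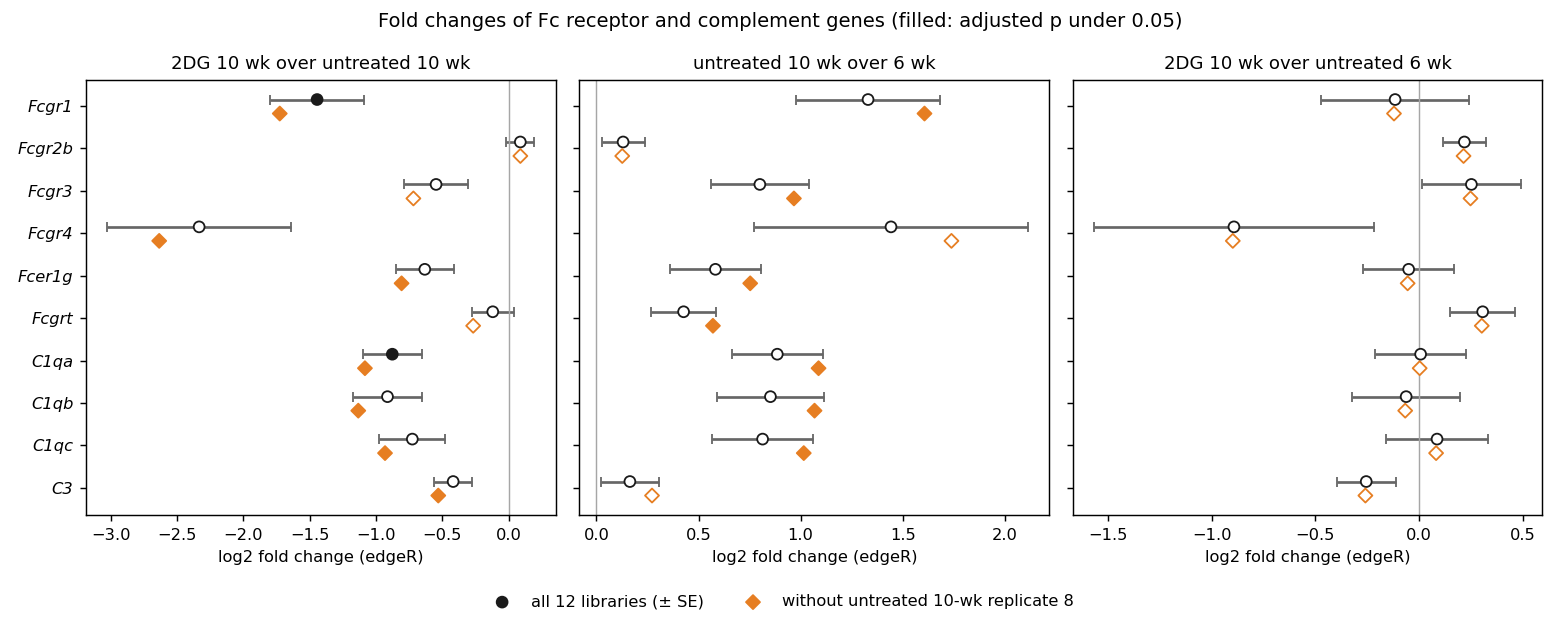
Fitted log2 fold change of each gene in the 3 comparisons; circles with bars are edgeR estimates ± SE over 12 libraries, diamonds the estimates without untreated 10-week replicate 8, and filled symbols passed an adjusted p of 0.05. With all libraries only Fcgr1 (-1.44) and C1qa (-0.88) are filled, while 7 diamonds are filled in each of the first 2 panels.

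Untreated spleens were then compared between the symptomatic age of 10 weeks and 6 weeks. None of the 10 genes passed edgeR's test, and 0.00539% of all genes did, a single gene. All 10 log2 fold changes were positive, with a median of 0.81 against 0.01 over all genes, of which 51.5% were positive. At an unadjusted edgeR p under 0.05 there were 7 of 10 members, all higher, against 9.26% of all genes in that direction. DESeq2 called 5 (Fcgr1, Fcgr3, C1qa, C1qb and C1qc), against 1.86% of the 36604 genes with any count, in either direction. The smallest p was that of C1qa, which averaged 281 ± 96.9 CPM at 10 weeks and 152 ± 24.97 CPM at 6 weeks (SD, n = 4 each; log2 fold change 0.89, SE 0.22, edgeR adjusted p = 0.112). Fcgr1 averaged 20.4 ± 9.89 CPM at 10 weeks and 8.05 ± 2.09 CPM at 6 weeks (log2 fold change 1.33, SE 0.35, edgeR adjusted p = 0.122). Fcgr4 had the widest interval, with a log2 fold change of 1.44 and SE 0.67 (edgeR adjusted p = 0.306), and Fcgr3 stood at 0.80 (SE 0.24, edgeR adjusted p = 0.150).

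No member had all 10-week libraries above all 6-week libraries (3.64% of all genes did). Without replicate 8 edgeR called 7 of 10 higher at 10 weeks (Fcgr1, Fcgr3, Fcer1g, Fcgrt, C1qa, C1qb and C1qc), against 8.33% of all genes in either direction. Their log2 fold changes in that fit ran from 0.57 for Fcgrt to 1.61 for Fcgr1, and those of Fcgr2b, Fcgr4 and C3 did not pass (0.13, 1.74 and 0.27; edgeR adjusted p = 0.561, 0.138 and 0.214). Without replicate 6 edgeR called 0 of the 10, and 0 of 18831 genes. This comparison and that of 2DG with untreated spleens use the same untreated 10-week libraries, so a high or low value there enters both with opposite sign.

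The third comparison set 2DG spleens at 10 weeks against untreated spleens at 6 weeks. It holds no untreated 10-week library, although the spread was estimated over all groups, and it shares the 2DG and the 6-week libraries with the comparisons above. None of the 10 genes passed edgeR's test (0.129% of all genes did), and none had an unadjusted p under 0.05 (16.9% of all genes did). DESeq2 called 0, against 2.46% of the 36604 genes with any count, in either direction. The median log2 fold change was -0.02. C1qa averaged 153 ± 8.21 CPM with 2DG and 152 ± 24.97 CPM at 6 weeks (log2 fold change 0.01, SE 0.22, edgeR adjusted p = 0.991), and Fcgr1 averaged 7.47 ± 1.17 CPM with 2DG and 8.05 ± 2.09 CPM at 6 weeks (log2 fold change -0.11, SE 0.36, edgeR adjusted p = 0.917). SEs of this size leave room for moderate differences in either direction. Fcgr2b and Fcgrt were the 2 of 10 genes whose 2DG libraries all lay above the 6-week libraries, as did 7.98% of all genes. Fcgr2b averaged 138 ± 3.95 CPM with 2DG and 118 ± 5.96 CPM at 6 weeks (log2 fold change 0.22, SE 0.11, edgeR adjusted p = 0.317). Fcgrt averaged 72.8 ± 4.69 CPM with 2DG and 58.8 ± 6.65 CPM at 6 weeks (log2 fold change 0.31, SE 0.16, edgeR adjusted p = 0.355). When only these groups entered the fit both passed, against 7.54% of all genes.

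**Figure D4:**
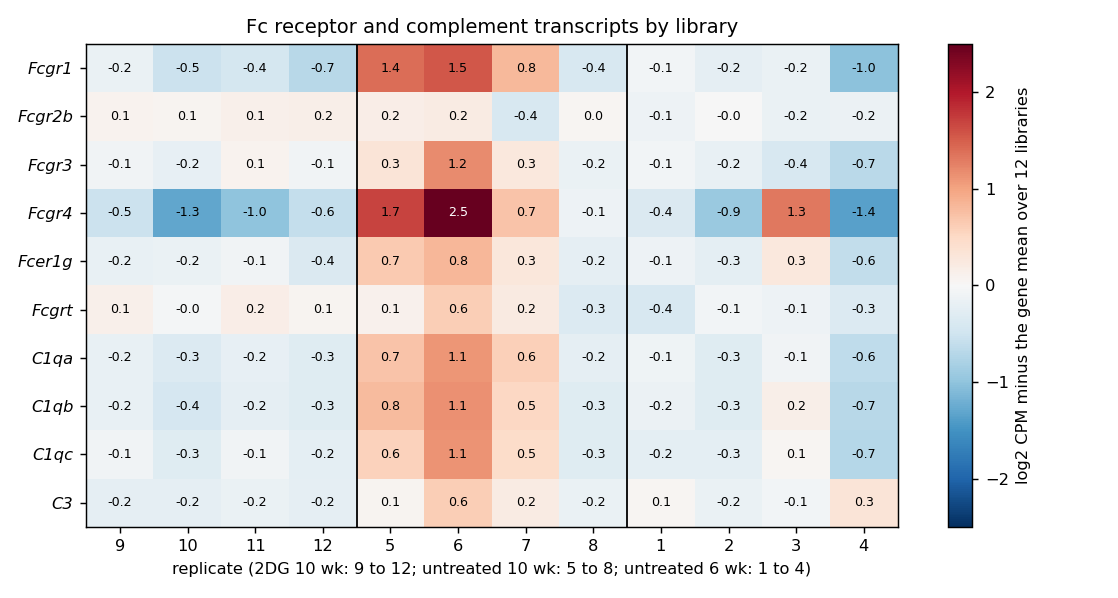
Log2 CPM of each gene in each library minus its mean over the 12 libraries; columns are replicates grouped as 2DG at 10 weeks, untreated at 10 weeks and untreated at 6 weeks. Untreated 10-week replicates 5, 6 and 7 are above the mean for 9 of the 10 genes, while replicate 8 resembles the 2DG and 6-week columns.

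Levels of different genes were compared as CPM per kilobase of merged exon. With 2DG the order was C3 (163 ± 3.40), C1qa (147 ± 7.89), C1qb (125 ± 8.25), C1qc (83.2 ± 6.53), Fcer1g (71.1 ± 5.89), Fcgrt (34.6 ± 2.23), Fcgr2b (23.8 ± 0.682), Fcgr3 (21.9 ± 1.84), Fcgr4 (15.6 ± 3.70) and Fcgr1 (2.88 ± 0.450; SD, n = 4). Libraries of neighbours in this order overlapped only between C1qc and Fcer1g and between Fcgr2b and Fcgr3. In untreated spleens at 10 weeks every neighbouring pair overlapped except Fcgr2b and Fcgr1, and C1qa led with 269.9 ± 93.1. Fcgr4 had 78.7 ± 57.8 CPM per kilobase there, a mean above those of Fcgrt, Fcgr3 and Fcgr2b, whose libraries it overlapped. At 6 weeks C3 led again with 194 ± 29.1 and Fcgr1 was last with 3.11 ± 0.808. The coefficient of variation over the 10 genes had a median of 7.24% with 2DG, 36.2% untreated at 10 weeks and 19.5% at 6 weeks.

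Transcripts of IgG, the ligand of these receptors, were far lower with 2DG. Of 4 IgG heavy chain genes, 3 fell with 2DG at 10 weeks and Ighg1 did not pass (edgeR adjusted p = 0.0740). Ighg2c, whose product binds Fcgr1 and Fcgr4, averaged 938 ± 481 CPM with 2DG and 14597 ± 5584 CPM untreated (log2 fold change -3.96, SE 0.57, edgeR adjusted p = 0.00408). Ighg2b averaged 602 ± 216 CPM with 2DG and 5631 ± 1780 CPM untreated (log2 fold change -3.23, SE 0.37, edgeR adjusted p = 0.00176). Ighg3, named after its values were seen, was the third, with a log2 fold change of -4.91 (SE 0.97, edgeR adjusted p = 0.0162). The Ighg3 call was not followed through the leave-one-out fits. Summed IgG levels were 3157, 1843, 1337 and 2757 CPM with 2DG, 30694, 32830, 33846 and 12296 CPM untreated at 10 weeks, and 11091, 4775, 7155 and 3448 CPM at 6 weeks. Replicate 8, low for Fc receptors and C1q, was also the lowest untreated 10-week library for IgG, yet above every 2DG and 6-week library. Similar sequences among the heavy chains make the split between subclasses uncertain.

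Lists of genes that act with the receptors or the complement proteins gave no edgeR call with all libraries in 4 cases. Among 11 other Fc and immunoglobulin receptors edgeR called 0 (3 lower at an unadjusted p under 0.05; DESeq2 called 2 lower), with a median log2 fold change of 0.12; Fcrl5, a receptor-like protein of B cells, stood at -0.95 (edgeR adjusted p = 0.0653; -1.11 and 0.0320 without untreated replicate 8). Of 15 genes of Fc receptor signalling edgeR called 0 (3 lower unadjusted; DESeq2 called 1 lower), and Lcp2, the adaptor SLP-76, stood at -0.31 (edgeR adjusted p = 0.0519; -0.41 and 0.00276 without replicate 8). Among 11 tested genes of the classical and lectin pathways edgeR called 0 (4 lower unadjusted; DESeq2 0), and C1ra, a protease of the C1 complex, stood at -0.40 (edgeR adjusted p = 0.0995; -0.51 and 0.0240 without replicate 8). Of 7 tested genes of the alternative and terminal pathways edgeR called 0 (1 lower and 1 higher unadjusted; DESeq2 0), with Cfb, the protease of the alternative C3 convertase, at -0.71 (edgeR adjusted p = 0.145; -0.82 and 0.0976 without replicate 8, -1.16 and 0.00176 without both untreated replicates 6 and 8). Medians of these lists were between -0.25 and 0.12. Among list genes too low to test, Mbl1, a mannose-binding lectin, had 0 counts in every library, and Vsig4, a complement receptor of tissue macrophages, had at most 34.

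Complement receptors and regulators held 3 falls among 16 tested genes by edgeR, which called none higher (6 lower and 2 higher unadjusted). DESeq2 called 5 lower and 1 higher, Cr2 (0.98, DESeq2 adjusted p = 0.00834), which is described below with the mature B cell markers. Cfi, the protease that inactivates C3b, averaged 2.04 ± 0.444 CPM with 2DG and 5.10 ± 1.66 CPM untreated at 10 weeks (SD, n = 4 each; log2 fold change -1.32, SE 0.23, edgeR adjusted p = 0.00610), with all 2DG libraries below, and kept its call in all 12 leave-one-out fits. C3ar1, the receptor for the C3a fragment, averaged 2.09 ± 0.359 CPM with 2DG and 7.13 ± 4.23 CPM untreated (log2 fold change -1.76, SE 0.37, edgeR adjusted p = 0.0155); the call was lost without 2DG replicate 10 or 11. Serping1, the C1 inhibitor, was the third and was named after its values were seen, at 142 ± 12.3 CPM with 2DG and 203 ± 49.9 CPM untreated (log2 fold change -0.51, SE 0.14, edgeR adjusted p = 0.0465). The Serping1 call was close to the threshold and was not followed through the leave-one-out fits.

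**Figure D5:**
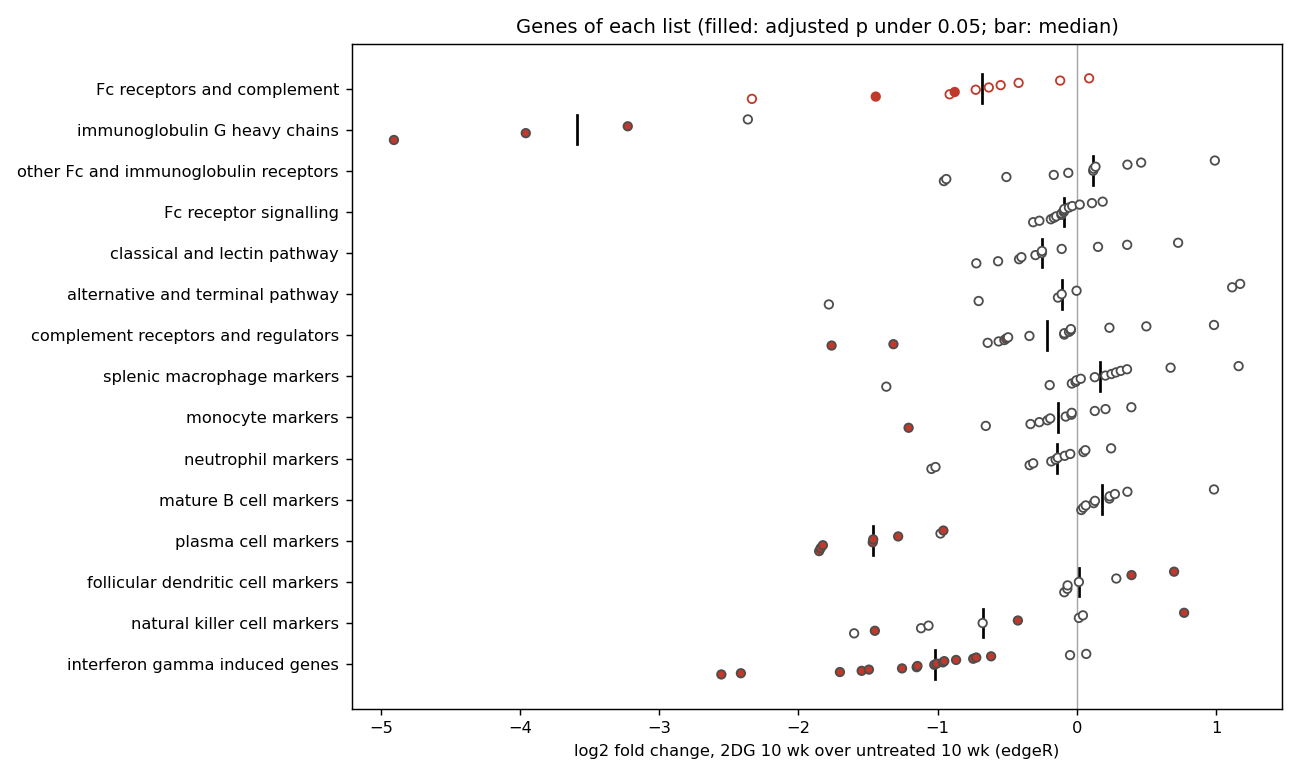
Fitted log2 fold change (2DG over untreated at 10 weeks, edgeR) of every tested gene in each list; filled points passed an adjusted p of 0.05 and vertical bars are list medians. Medians are -0.68 for the Fc receptor and complement genes, -3.59 for IgG heavy chains, -1.46 for plasma cell markers, -1.02 for genes induced by interferon gamma and -0.68 for natural killer cell markers, and those of the other lists lie between -0.25 and 0.18.

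Fc receptors and C1q are expressed by several cell types, so markers of those cells are given beside them; their part in the results was not tested. Splenic macrophage markers gave 0 calls among 14 (1 lower and 1 higher unadjusted; DESeq2 0), with a median of 0.17 and summed levels of 3445 to 3750 CPM with 2DG, 1868 to 4988 CPM untreated at 10 weeks and 2407 to 3345 CPM at 6 weeks. The untreated extremes were replicate 5 at 1868 CPM and replicate 6 at 4988 CPM, both of which were high for C1q and Fcgr1. Cd5l, a secreted macrophage protein, stood at -1.37 (edgeR adjusted p = 0.123). Of 12 monocyte markers Ly6c2, the Ly6C antigen, fell (34.0 ± 2.74 CPM with 2DG, 78.6 ± 27.0 CPM untreated; edgeR adjusted p = 0.0419), a call that did not hold in 9 of 12 leave-one-out fits (without 6-week replicate 2 or 3, untreated 10-week replicate 5, 6 or 7, or any one 2DG replicate). The monocyte sum was 2649 to 2870 CPM with 2DG, 2294 to 3664 CPM untreated at 10 weeks and 2833 to 3287 CPM at 6 weeks. Neutrophil markers gave 0 calls among 12 (0 unadjusted; DESeq2 0); Mpo, a granule enzyme, stood at -1.04 (edgeR adjusted p = 0.416) and at 0.12 without untreated replicate 6, and the sum reached 3623 CPM in untreated replicate 6, against 836 to 2146 CPM with 2DG.

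Among lymphoid and stromal markers, 7 of 8 plasma cell genes fell, led by Irf4 and Xbp1 (log2 fold changes -0.96 and -1.46, edgeR adjusted p = 0.00176 for each). Markers of natural killer cells, which also express Fcgr3, gave 2 falls (Eomes at -1.45 and Klrk1 at -0.42, the second named after its values were seen) and 1 rise (Klrd1 at 0.77) among 9; the edgeR adjusted p was 0.0100, 0.0466 and 0.0394, and the Klrd1 call did not hold in 9 of 12 leave-one-out fits, those without any one 6-week replicate, untreated 10-week replicate 5 or 6, or 2DG replicate 10, 11 or 12. The Klrk1 call was not followed through these fits. The median over the 9 markers was -0.68 (6 lower and 1 higher at an unadjusted p under 0.05, and by DESeq2 4 lower and 1 higher). Their summed level was low, at 29.0 to 39.4 CPM with 2DG, 36.4 to 68.2 CPM untreated at 10 weeks and 35.8 to 43.4 CPM at 6 weeks. Every group carried the targeted Il15 allele, and which cells these transcripts came from was not tested. Of 7 tested follicular dendritic cell markers Coch and Enpp2 rose (0.70 and 0.39, edgeR adjusted p = 0.0235 and 0.0361). Both calls were lost without 2DG replicate 10 or 11, and that of Enpp2 also without 6-week replicate 2 or 3, untreated 10-week replicate 5, 6 or 7, or 2DG replicate 12. Mature B cell markers gave 0 calls among 10 (1 higher unadjusted, DESeq2 1 higher). All 10 log2 fold changes were positive, with a median of 0.18, where 51.8% of all genes were positive. In untreated spleens at 10 against 6 weeks all 10 were negative, with a median of -0.30, where 51.5% of all genes were positive. Cr2, the complement receptor that binds C3 fragments on B cells and follicular dendritic cells, stood at 0.99 with 2DG against untreated at 10 weeks (edgeR adjusted p = 0.0806). Without untreated replicate 8 it was 1.49 (edgeR adjusted p = 8.13e-05), and DESeq2 called it with all libraries (0.98, DESeq2 adjusted p = 0.00834).

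Fcgr1, Fcgr4 and the C1q genes are known targets of interferon gamma in macrophages. A list of 18 genes induced by that cytokine held 16 falls with 2DG at 10 weeks, with a median of -1.02. Among all genes tested, 5.26% fell by edgeR. Irf1, a transcription factor of the interferon response, averaged 135 ± 13.8 CPM with 2DG and 247 ± 45.7 CPM untreated (log2 fold change -0.87, edgeR adjusted p = 0.00222), and Gbp4, a guanylate-binding protein, 79.9 ± 9.65 CPM with 2DG and 191 ± 45.1 CPM untreated (log2 fold change -1.26, edgeR adjusted p = 0.00287). Summed levels of the list were 1799.5 to 2268 CPM with 2DG, 2711 to 4485 CPM untreated at 10 weeks and 2306 to 2719 CPM at 6 weeks, with replicate 8 the lowest of the untreated 10-week libraries. Whether this cytokine takes part in the levels of the Fc receptors and C1q was not tested. In the comparisons with 6-week spleens edgeR called 0 genes in every list. At an unadjusted p under 0.05, 16 interferon gamma genes and all 4 IgG genes were higher in untreated spleens at 10 weeks than at 6 weeks, of which DESeq2 called 9 and 2. Of all genes, 9.26% were higher there at that unadjusted edgeR p. For 2DG against 6 weeks, 10 interferon gamma genes and 3 IgG genes were lower unadjusted, of which DESeq2 called 1 and 2. In that comparison 16.9% of all genes passed unadjusted, in either direction. Of 8 plasma cell markers, 7 were higher unadjusted in untreated spleens at 10 weeks than at 6 weeks (DESeq2 called 6). With 2DG, 6 of them were lower unadjusted than at 6 weeks (DESeq2 called 6).

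Genes with a similar course over the 12 libraries were found by the root mean square (RMS) difference of log2 CPM after centring, among 11248 candidates. Closest to Fcgr1 were Fgl2 and Klra2 (RMS difference 0.229 for each, against an SD of Fcgr1 of 0.806), and closest to Fcgr4 were Ms4a6d and Wfdc17 (0.391 and 0.486, against 1.26). The mean of the C1q genes was closest to Clec4a3 and Gbp8 (0.104 and 0.122, against 0.517). Fgl2 averaged 63.0 CPM with 2DG, 167 CPM untreated at 10 weeks and 80.7 CPM at 6 weeks, and Clec4a3 averaged 36.6 CPM with 2DG, 64.0 CPM untreated at 10 weeks and 34.8 CPM at 6 weeks. Fcgr2b was closest to Ptpn18 and Plaur (0.0820 and 0.0841, against 0.179), Fcgrt to Ltbr and Dnaaf3 (0.106 for each, against 0.289) and C3 to Gas7 and Tulp2 (0.119 and 0.126, against 0.263). These distances describe the libraries, which share 1 set of groups, and carry no test.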

How the data were processed

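Poly(A)-selected, unstranded libraries (TruSeq RNA v2) were made from total spleen RNA, per the labels' protocols. The authors deposited whole-number read counts per gene, used here as deposited. The submitters' processing notes name Bowtie2 2.2.0, RSEM 1.2.12 and build GRCm38 with no role for each; the treatment of reads shared between genes is not stated in the sources used here. Groups came from the sample titles.

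Of 53715 identifiers, 53620 matched GENCODE M21. Differential expression was tested with edgeR 4.0.16 (R 4.3.3): TMM, filterByExpr, robust quasi-likelihood fits over all 12 libraries, and Benjamini-Hochberg adjustment over 18542 genes called under 0.05. CPM denotes counts divided by the TMM library size, and SE is the fitted log2 fold change over the root of its F statistic. The fit was tested on simulated counts. Members and gene lists were chosen with earlier results of these data known. In each list the called genes with the lowest adjusted p (at most 2), or else the gene with the smallest p, were named. Promoter windows are from RefSeq (GRCm38.p6). Alternatives tried included DESeq2 1.42.0, edgeR with median-of-ratios size factors, other filters, removal of immunoglobulin genes, fits of the compared groups only and each library left out. The 4 libraries per group limit the precision.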

Additional observations from a re-analysis of the deposited data

Results flagged for a closer look

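Of 147 sets of 4 libraries examined (each gene level, list sum and ratio in each group), 5 had 1 library far from the rest of its group by Dixon's criterion, where chance gives about 1 set in 20. None was a level of one of the 10 genes followed. Untreated 10-week replicate 8 accounted for 4 of them: its log2 Fcgr1/Fcgr2b ratio was -4.11, against -2.45 to -2.32 in the rest of its group; its summed IgG level was 12296 CPM, against 30694 to 33846 CPM; Cr2 stood at 957 CPM, against 288 to 394 CPM; and Cd5l stood at 71.7 CPM, against 122 to 127 CPM. In 2DG replicate 10 the log2 C1qb/C1qa ratio was -0.21, against -0.16 in each of the other libraries of its group.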

How the results depend on the processing

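The number of Fc receptor and complement genes called was 2 at 10 weeks (2DG against untreated) and 0 in the other comparisons, and was the same with median-of-ratios size factors, with at least 1 CPM in 4 libraries and with immunoglobulin genes removed. In the 10-week comparison it was 0 with no filter, 0 with only the compared groups, 7 with DESeq2 and 5 without both untreated replicates 6 and 8 (an alternative chosen after seeing the data, in which 16.7% of all genes passed), and 0 to 7 when 1 library was left out. For 10 against 6 weeks it was 5 with DESeq2, 6 without both replicates (12.0% of all genes passed) and 0 to 7 when 1 library was left out. For 2DG against 6 weeks it was 2 with only the compared groups and 0 to 0 when 1 library was left out. The cause was not tested. Some log2 changes turned sign when 1 library was left out. Against 6 weeks C1qa ran from -0.095 to 0.073 (negative without 6-week replicate 2 or 4 or 2DG replicate 9 or 11), Fcer1g from -0.18 to 0.12 (positive without 6-week replicate 3 or 2DG replicate 12), C1qb from -0.19 to 0.087 (positive without 6-week replicate 3) and C1qc from -0.038 to 0.21 (negative without 6-week replicate 4). Against untreated spleens at 10 weeks Fcgrt ran from -0.27 to 0.052 and Mpo from -1.36 to 0.12 (both positive without untreated replicate 6), and Fcgr2b from -0.037 to 0.15 (negative without untreated replicate 7). No paired analysis was possible because replicate numbers run from 1 to 12 over the groups and no number is shared.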
